A study of Lissachatina fulica and Mizuhopecten yessoensis with 12 samples.

Results

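Gene expression was compared between the atrium and the ventricle of the adult heart of the scallop Mizuhopecten yessoensis, a bivalve mollusc. The genes described are all rows of the deposited scallop table whose normalized count averaged at least 10 over the 6 scallop libraries. They number 3927 of 4195 scallop rows, in a series whose scallop and snail tables held 6081 rows together. The authors had listed only genes that they selected as different between the chambers, and in the authors' deposited table no row had an unadjusted p above 0.0499 or a log2 fold change smaller than 1.001 in size. Just below the minimum lay HVCN1, a proton channel gene, at a mean of 9.98 (18.7 in atria and 1.24 in ventricles), and an unnamed row at 9.86. Just above it lay unnamed rows at 10.001 and 10.029. Of the 3927 rows, 2411 had a gene symbol, of 2179 kinds, and 1516 were known by identifier alone. The symbols come from similarity to genes of other animals, and the roles given below are those known from other species.

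All 6 libraries were made from poly-A selected heart RNA of wild-type scallops, 3 from the atrium and 3 from the ventricle, with no treatment named. The labels do not say whether the 3 libraries of a chamber came from separate animals or from pools, or whether an atrium and a ventricle shared an animal. The p-values below therefore rest on the spread among 6 libraries, some of which may be technical.

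In the bivalve heart, thin-walled atria receive hemolymph returning from the gills and fill a thick-walled ventricle, which pumps it into the arteries of an open circulation. Both chambers contract, and nerves from the visceral ganglion adjust the beat. In scallops and many other bivalves the atrial wall also carries the pericardial gland, whose podocyte-type cells filter hemolymph into the pericardial cavity at the start of urine formation.

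Reads on the listed genes numbered 10120508 to 11987811 per atrium library and 12841841 to 21526834 per ventricle library. Total library sizes are unknown, since only selected genes were listed. The deposited values are reads divided by 1 size factor per library. On this scale the listed genes summed to between 8910558 and 9666780.4 in the atria and between 12067925 and 23813742 in the ventricles, the lowest ventricular sum being that of ventricle 3. Across genes, log2 values of the atria correlated with each other at r of 0.937 to 0.950, and ventricle 1 with ventricle 2 at 0.948. Ventricle 3 stood apart: it correlated at 0.929 and 0.924 with ventricles 1 and 2, and at 0.777 to 0.805 with the atria, where ventricles 1 and 2 reached 0.717 to 0.765.

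To place ventricle 3, each gene's value was set on a scale from 0%, the log2 mean of ventricles 1 and 2, to 100%, the log2 mean of the atria. Its median position was 27.0% in the 1786 genes higher in the atrium and 44.4% in the 2141 genes higher in the ventricle. In 583 and 939 of these genes ventricle 3 lay past the midpoint, nearer to the atria. The position differed between gene groups. It was lowest in amino acid metabolism (18.5%), contractile proteins (19.3%) and the TCA cycle (20.8%), and highest in the endoplasmic reticulum group (75.6%) and the lysosome group (74.7%).

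**Figure D1:**
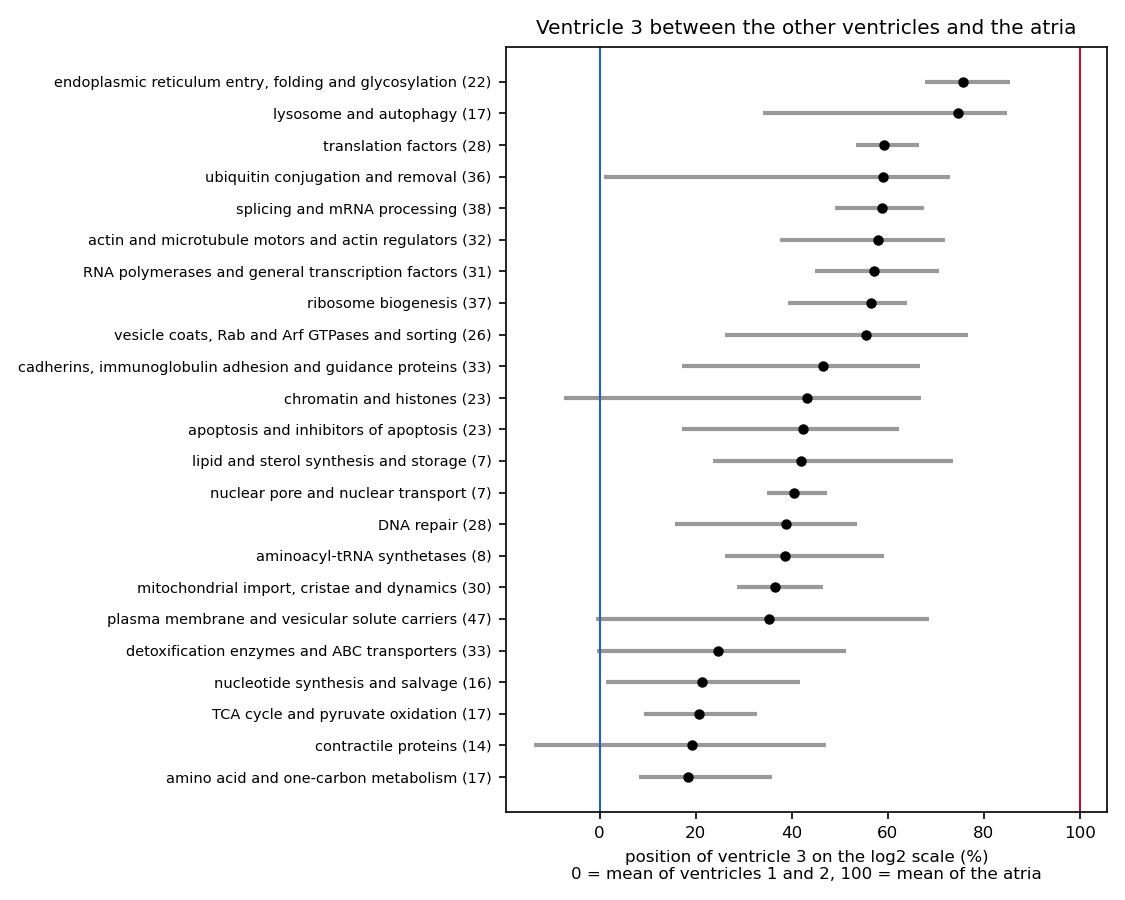
Position of ventricle 3 on the log2 scale in 23 gene groups (number of genes in brackets), where 0% is the mean of ventricles 1 and 2 and 100% the mean of the atria; dots are medians over the genes and bars run from the lower to the upper quartile. Medians ran from 18.5% in amino acid metabolism to 75.6% in the endoplasmic reticulum group.

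A gene passed the threshold when it differed at least 2-fold and its limma p, adjusted over the 3927 rows by the method of Benjamini and Hochberg, was under 0.05. The fit used log2(normalized count + 1). Fold changes below are log2 values of atrium over ventricle on this scale, ± SE. The threshold was passed by 3440 rows (87.6%): 1648 (42.0%) had higher atria and 1792 (45.6%) higher ventricles. The 3 atrial and the 3 ventricular values did not overlap in 3446 rows (87.8%), 1573 (40.1%) with higher atria and 1873 (47.7%) with higher ventricles. Because the rows had been listed for this same difference, these shares describe the listing, and nothing is read from a group's count against them. Without ventricle 3 the threshold was passed by 1565 atrial and 1918 ventricular rows. The counts were 968 and 909 without atrium 1, 866 and 942 without atrium 2, 1167 and 1186 without ventricle 1, and 1244 and 1161 without ventricle 2.

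Directions are relative to the authors' scaling. The median log2 fold change over all 3927 rows was -1.01 on that scale. It was -0.52 after a further TMM scaling, -0.36 after quantile normalization and 0.22 after a ribosomal rescaling. The last set the median of the 60 listed cytosolic ribosomal protein genes level in every library, not each gene. The atrial share of the genes past the threshold was 47.9%, 74.4%, 46.3% and 96.7% in the same order. A gene is said below to turn where its fold change has the other sign under the ribosomal rescaling, as 795 of the 3927 rows did. Under the TMM scaling 0 rows turned, and under quantile normalization 73. Keeping its sign does not keep a gene past the threshold: in place of 1792 ventricular rows, 596 passed under TMM, 1131 under quantile normalization and 60 under the ribosomal rescaling. All 3 other scalings were computed from the listed rows alone, which had been selected as different. Passing under them shows how a call depends on scaling, and cannot show that the call is right. Below, 3 counts given for the other scalings are in the order TMM, quantile normalization and ribosomal rescaling. Of the 38 genes named below that passed toward the ventricle, 12 passed under none of the 3 other scalings, 10 under TMM alone, 7 under TMM and quantile normalization, and 9 under all 3. Of the 37 that passed toward the atrium, 34 passed under all 3, and PDPR, TRPA1 and GABBR2 missed under quantile normalization alone.

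The differences toward the 2 chambers had different shapes. The 1786 genes higher in the atrium had a median fold change of 2.16 (4.48-fold) and a median level of 228 normalized counts in atria against 51.3 in ventricles. The 2141 genes higher in the ventricle had a median of -1.35 (2.56-fold), from 374 in atria to 1036 in ventricles. Differences of 32-fold or more were seen in 90 genes toward the atrium and 2 toward the ventricle. Differences of 2-fold to 4-fold were seen in 768 and 1664. No ventricle library held a read of 59 of the genes, 21 of them with a symbol, whereas 1 gene, without a symbol, had no read in the atria. Size factors were 1.05 to 1.35 in atria and 0.665 to 1.07 in ventricles, so scarce genes could be missed more readily in the ventricles. The ventricle libraries also scattered more: the median SD of log2 values was 0.404 in atria and 0.899 in ventricles for genes higher in the atrium, and 0.259 and 0.575 for genes higher in the ventricle. In whole-chamber RNA, fewer cells of a type and less RNA per cell cannot be told apart.

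Named and unnamed genes leaned to different chambers. Of the 2411 rows with a symbol, 824 passed with higher atria and 1312 with higher ventricles, at a median fold change of -1.10, and 624 of them turned. Of the 1516 rows without a symbol, 824 passed with higher atria and 480 with higher ventricles, at a median of 1.44, and 171 turned. The ventricular lean of the named rows was absent under the ribosomal rescaling, where their median was 0.14.

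**Figure D2:**
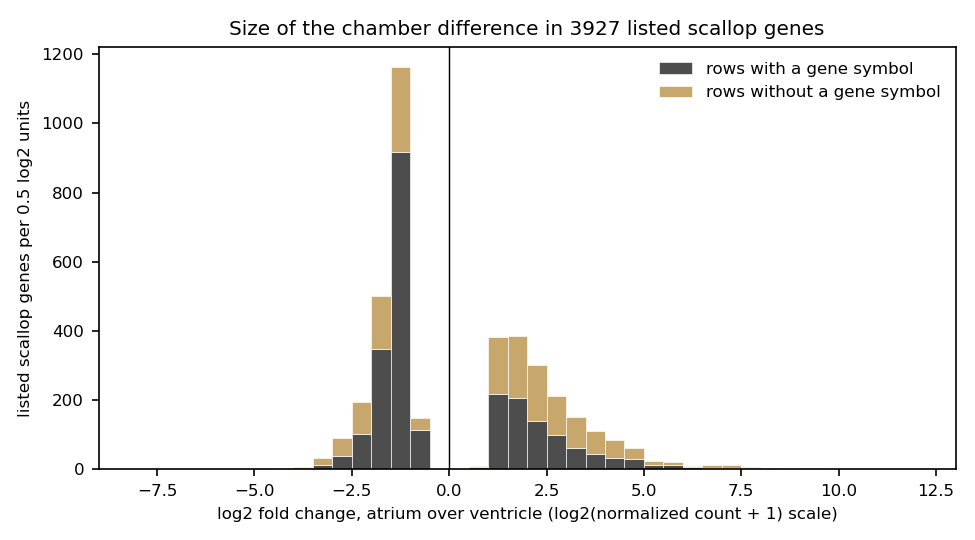
Number of listed scallop genes by log2 fold change of atrium over ventricle in steps of 0.5, with rows that carry a gene symbol in dark grey and rows without one in tan. The atrial side reaches farther from 0, with 90 genes at 32-fold or more against 2 on the ventricular side; under the ribosomal rescaling the median of all genes moves from -1.01 to 0.22.

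Muscle genes had high normalized counts in both chambers, as the heart label implies. Tm2, a tropomyosin that lies along the thin filament, stood at 188124, 188968 and 194561 normalized counts in atria 1 to 3 and at 608321, 477947 and 357745 in ventricles 1 to 3 (-1.30 ± 0.36, limma adjusted p = 0.0126). Mlc1, a myosin light chain, stood at 40094, 56747 and 54389 in the atria and at 242486, 174171 and 124890.3 in the ventricles (-1.80 ± 0.36, adjusted p = 0.00393). TNNI1, the inhibitory troponin subunit, named here after its values were seen, stood at 27818, 26985 and 26729 in the atria and at 68886, 63334 and 57953 in the ventricles (-1.22 ± 0.29, adjusted p = 0.0074). In all 3 genes every ventricle exceeded every atrium, and ventricle 3 was the lowest of the ventricles. MYLK, the kinase that phosphorylates myosin light chain, ran the other way, at 51274, 54798 and 45511 in the atria and 21638, 13794 and 19516 in the ventricles (1.49 ± 0.31, adjusted p = 0.00463). Of the 14 listed contractile genes, 12 passed toward the ventricle (10 without ventricle 3), 1 toward the atrium and 1 did not pass. Past the threshold toward the ventricle were 3, 2 and 0 under the other scalings. Their median was -1.17, and 7 turned, TNNI1 among them. Under those scalings Mlc1 passed with TMM alone, and Tm2, TNNI1 and TNNT2 with none. The ventricular count was 5 without atrium 1, 5 without atrium 2, 7 without atrium 3 and 8 without ventricle 2, and Tm2 no longer passed without any 1 of the atria (adjusted p = 0.0537 to 0.0609). TNNT2, also named after its values were seen, is the other subunit of the troponin complex with a listed row. It differed by -1.13 ± 0.36 (limma adjusted p = 0.0187) and turned to 0.11. It did not pass without atrium 1, 2 or 3 or ventricle 1 (0.044 to 0.0729, the fold then being under 2 where p was under 0.05).

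Mitochondrial genes outside the respiratory chain were higher in the ventricle on the authors' scale. The TCA cycle oxidises acetyl groups in the mitochondrial matrix and feeds electrons to respiration. Of its 17 listed genes and those of pyruvate oxidation, 16 passed the threshold toward the ventricle and 1 toward the atrium, at a median of -1.46, and 3 turned. The ventricular count became 8, 4 and 0 under the other scalings. IDH3G, a subunit of the NAD-dependent isocitrate dehydrogenase, stood at 2236, 2715 and 2689 in the atria and 10493, 10648 and 8525 in the ventricles (-1.96 ± 0.28, limma adjusted p = 0.001). MDH2, the matrix malate dehydrogenase, stood at 7357, 7551 and 9377 against 33282, 27227 and 19551 (-1.70 ± 0.31, adjusted p = 0.00286), and its cytosolic counterpart MDH1 differed by -1.61 ± 0.30 (adjusted p = 0.00289). For IDH3G, MDH2 and MDH1 the chambers did not overlap. IDH3G passed under TMM and quantile normalization, and MDH1 and MDH2 under TMM alone. The 1 gene higher in the atrium was PDPR, the regulatory subunit of pyruvate dehydrogenase phosphatase, which was scarce: 16.2, 11.5 and 42.4 in the atria and 0, 6.02 and 1.88 in the ventricles (2.95 ± 0.97, adjusted p = 0.0205). Without atrium 3 or ventricle 1 PDPR did not pass (adjusted p = 0.0594 and 0.0649).

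Proteins that bring other proteins into mitochondria and shape the inner membrane were also higher in the ventricle. All 30 listed genes of mitochondrial import, cristae and dynamics passed the threshold toward the ventricle, between -1.97 and -1.02 (median -1.52), and 5 turned. With the other scalings 15, 16 and 0 passed. With 1 library left out, 21 passed without atrium 1 and 25 to 30 without any other. PMPCB, which trims the targeting sequence from imported proteins, stood at 8101, 9182 and 9682 in the atria and 33474, 32677 and 27879 in the ventricles (-1.80 ± 0.28, limma adjusted p = 0.00141). TIMM10, a small chaperone of the space between the membranes, stood at 233, 299 and 326 against 1929, 994 and 722 (-1.97 ± 0.43, adjusted p = 0.00549). VDAC2, a pore of the outer membrane, stood at 18686, 17536 and 20190.3 against 75433, 58004 and 45011 (-1.63 ± 0.31, adjusted p = 0.00334). The lowest ventricle was above the highest atrium in each of these genes. TIMM10 passed under TMM and quantile normalization, and PMPCB and VDAC2 under TMM alone. In amino acid and one-carbon metabolism, 14 of 17 genes passed toward the ventricle and 1 toward the atrium (median -1.28), and 6 turned; under the other scalings 4, 4 and 0 passed toward the ventricle. GLUD1, the glutamate dehydrogenase that links amino acids to the TCA cycle, differed by -1.58 ± 0.32 (adjusted p = 0.00393) and passed under TMM alone of those scalings.

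**Figure D3:**
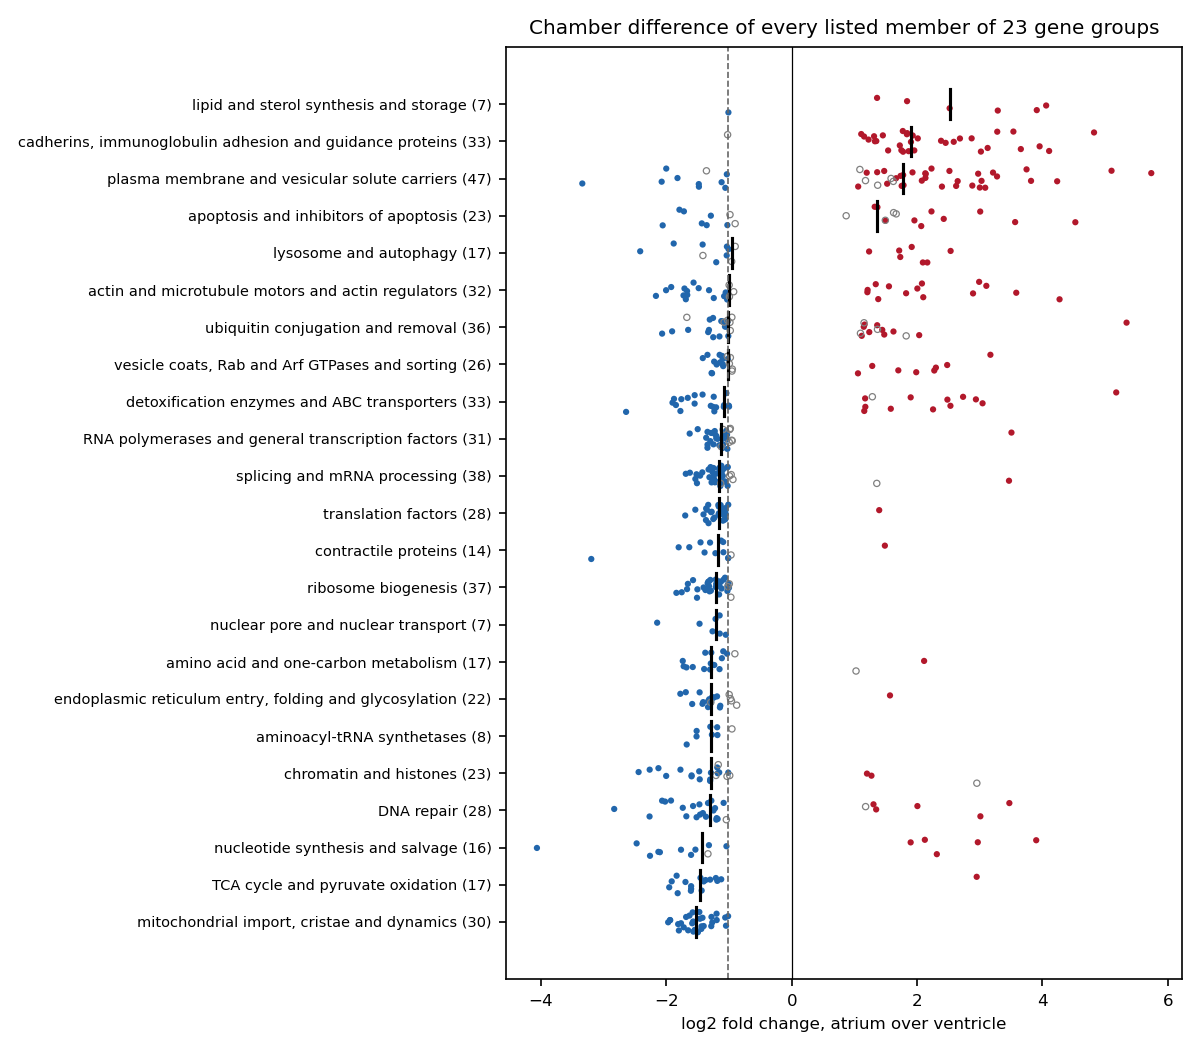
Log2 fold change of atrium over ventricle for every listed member of 23 gene groups (number of genes in brackets); filled points passed the threshold (red toward the atrium, blue toward the ventricle), hollow points did not, black bars are group medians and the dashed line marks the median of all 3927 rows. Medians ran from -1.52 in mitochondrial import to 2.52 in lipid synthesis; under the ribosomal rescaling the medians of 11 groups change from below to above 0.

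Genes that make and process RNA in the nucleus were mostly higher in the ventricle on the authors' scale, with ventricle 3 between the chambers. Of 38 splicing and mRNA processing genes, 32 passed toward the ventricle and 1 toward the atrium, at a median of -1.15, and 21 turned. Under the other scalings 4, 6 and 0 passed toward the ventricle. The ventricular count was 9 without atrium 1, 11 without atrium 2, 14 without ventricle 1, 12 without ventricle 2 and 35 without ventricle 3. SNRPD1, a core protein of spliceosomal particles, stood at 4777, 4383 and 5552 in the atria and 13939.7, 14049.7 and 8284 in the ventricles (-1.27 ± 0.32, limma adjusted p = 0.00911), and passed under none of the other scalings. Of 31 genes of RNA polymerases and general transcription factors, 23 passed toward the ventricle and 1 toward the atrium (median -1.13), and 21 turned; 2, 11 and 0 passed toward the ventricle under the other scalings. Here the count was 5 without atrium 1, 5 without atrium 2, 13 without atrium 3, 11 without ventricle 1, 7 without ventricle 2 and 30 without ventricle 3.

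Listed subunits of the nuclear RNA polymerases differed in direction. POLR2F, a small subunit shared by the nuclear polymerases, stood at 1015, 1204 and 1122 in the atria and at 3553, 3911 and 1618 in the ventricles (-1.34 ± 0.38, limma adjusted p = 0.0134), and passed under none of the other scalings. The row named POLR2A, the large catalytic subunit, stood at 241, 186 and 216 in the atria and at 9.96, 13.5 and 41.3 in the ventricles (3.51 ± 0.63, adjusted p = 0.0026). The chambers did not overlap in either gene, and in both ventricle 3 was the ventricle closest to the atria. The 12 listed subunits other than POLR2A, which include POLR1E, POLR3GL and POLR3K of polymerases I and III, were all lower in the atrium, between -1.34 and -0.95. Of these 10 passed (3 without atrium 1, atrium 2 or ventricle 2, 5 without atrium 3 and 6 without ventricle 1), but 9 of the 12 turned under the ribosomal rescaling, where POLR2A did not.

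Protein synthesis genes showed the same lean and the same dependence on scaling. Of 28 translation factors, 27 passed toward the ventricle and 1 toward the atrium (median -1.17), and 16 turned. Past the threshold toward the ventricle were 2, 5 and 0 under the other scalings. Toward the ventricle there were 8 without atrium 1, 14 without atrium 2, 18 without atrium 3, 9 without ventricle 1 and 16 without ventricle 2. EEF1A1, which delivers aminoacyl-tRNA to the ribosome, stood at 316392, 326537 and 286058 in the atria and 810525, 686116 and 436929.8 in the ventricles (-1.01 ± 0.39, limma adjusted p = 0.0323). It turned to 0.23 under the ribosomal rescaling and to 0.0708 under quantile normalization, and no longer passed without any 1 library other than ventricle 3 (adjusted p = 0.0482 to 0.136, with a fold under 2 where p was under 0.05). DENR, a factor that recycles and reinitiates small ribosomal subunits, stood at 656, 939.9 and 1038 against 3545, 3699 and 1677 (-1.70 ± 0.39, adjusted p = 0.00669), and passed under TMM and quantile normalization. Of 37 ribosome biogenesis genes, 34 passed toward the ventricle and 0 toward the atrium (median -1.20), and 21 turned; 6, 9 and 0 passed under the other scalings. That count was 12 without atrium 1, 16 without atrium 2, 22 without atrium 3 and 15 without ventricle 1. The nucleolar protein NCL differed by -1.16 ± 0.33 (adjusted p = 0.0139), turned to 0.0799, and did not pass without atrium 1 or 2 (0.0551 and 0.0597). All 7 nuclear pore and transport genes passed toward the ventricle (median -1.22; 4 without atrium 1 and 3 without atrium 2), and 4 turned, among them RAN, the GTPase that gives transport its direction, at -1.22 ± 0.31 (adjusted p = 0.00959) and at 0.0232 after the ribosomal rescaling. Under the other scalings 1, 2 and 0 of the 7 passed, and EEF1A1, NCL and RAN under none of them. Of 8 aminoacyl-tRNA synthetases, 7 passed toward the ventricle (median -1.29), and 3 turned; 2, 7 and 0 passed under the other scalings. Their count was 1 without atrium 1, 2 without atrium 2, 3 without atrium 3, 4 without ventricle 1 and 4 without ventricle 2.

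**Figure D4:**
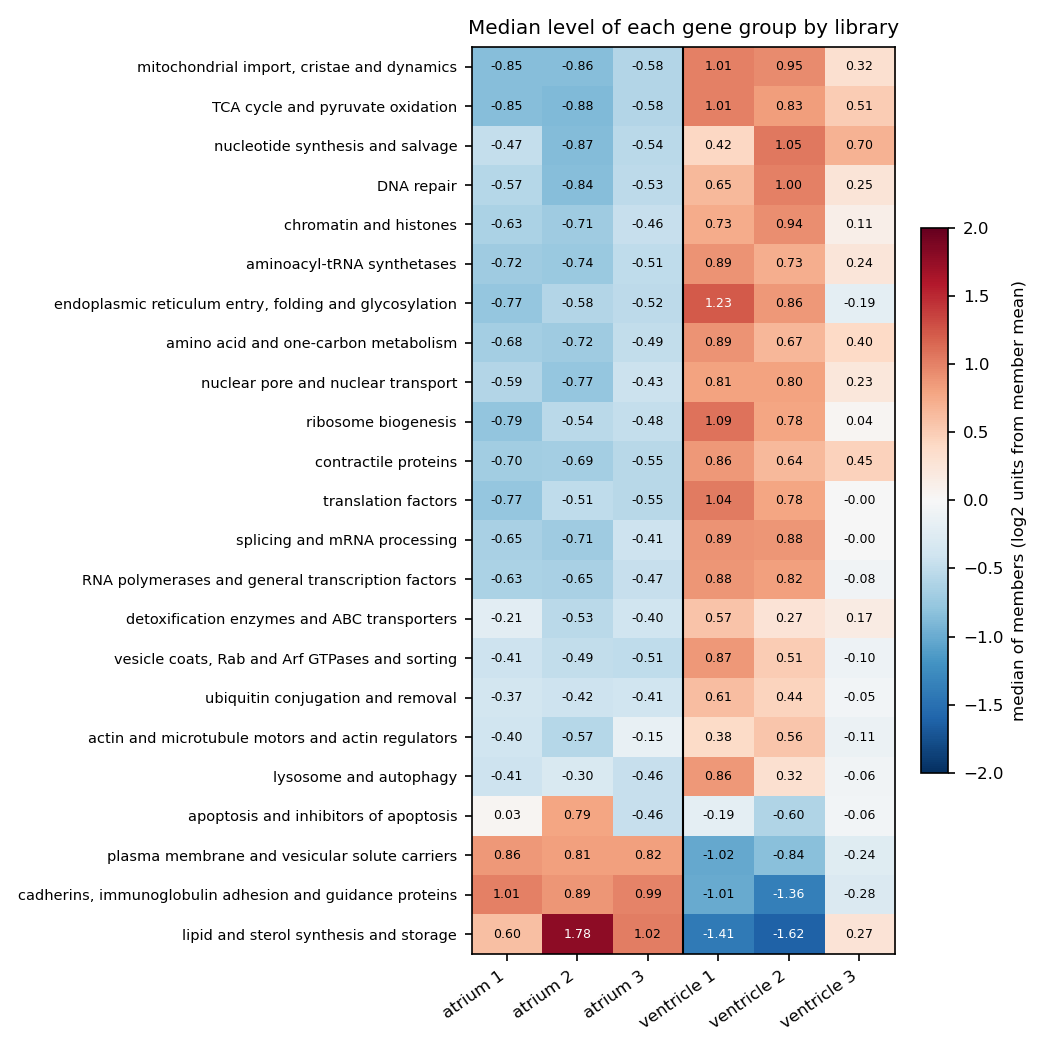
Median level of each gene group in each library, in log2 units from each gene's mean over the 6 libraries; rows are groups, columns are libraries, red is above and blue below the mean. The atria sit below 0 in 19 of the 23 groups and ventricle 3 sits nearest 0 among the ventricles in most of them; under the ribosomal rescaling the lean of 11 groups changes sign.

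Genes of the secretory pathway were higher in ventricles 1 and 2, while ventricle 3 lay close to the atria. Of 22 genes of endoplasmic reticulum entry, folding and glycosylation, 16 passed toward the ventricle (20 without ventricle 3) and 1 toward the atrium (median -1.28), and 8 turned. The ventricular count became 3, 1 and 0 under the other scalings. The ventricular count was 4 without atrium 1, 5 without atrium 2, 10 without atrium 3, 5 without ventricle 1 and 9 without ventricle 2. XBP1, the transcription factor of the unfolded protein response, stood at 17104, 19585 and 20026 in the atria and 80524, 78820.2 and 42627 in the ventricles (-1.78 ± 0.34, limma adjusted p = 0.00332). CALR, the calcium-binding chaperone calreticulin, stood at 19793, 33786 and 30216 against 124926, 78751 and 32944 (-1.33 ± 0.47, adjusted p = 0.0255). The XBP1 values did not overlap, whereas for CALR ventricle 3 fell below atrium 2, and CALR did not pass without any 1 library other than ventricle 3 (adjusted p = 0.0563 to 0.095). Of the other scalings, XBP1 passed under TMM alone and CALR under none.

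The vesicle, lysosome and ubiquitin groups were split, as were the listed rows as a whole (42.0% toward the atrium, 45.6% toward the ventricle). Among 26 genes of vesicle coats, small GTPases and sorting, 8 passed toward the atrium and 13 toward the ventricle (16 without ventricle 3), and 14 turned; 0, 2 and 0 passed toward the ventricle under the other scalings. With another library left out the counts fell to between 1 and 7 toward the atrium and between 3 and 6 toward the ventricle, the lowest without atrium 2 and without atrium 1. Among 17 lysosome and autophagy genes, 7 passed each way, and 6 turned; the ventricular count was 1, 2 and 0 under the other scalings. Their counts fell to 1 to 3 toward the atrium and 2 or 3 toward the ventricle without any 1 library other than ventricle 3. Among 36 genes of ubiquitin conjugation and removal, 10 passed toward the atrium and 16 toward the ventricle, and 13 turned; 1, 9 and 0 passed toward the ventricle under the other scalings. These counts fell to between 2 and 5 and between 3 and 6 without any 1 library other than ventricle 3. KLHL10, an adaptor of the cullin 3 ubiquitin ligase known from mammalian testis, stood at 165, 359 and 87.0 in the atria and 4.42, 13.5 and 0 in the ventricles, without overlap (5.34 ± 0.99, limma adjusted p = 0.00294).

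Nucleotide, DNA repair and chromatin genes were mostly higher in the ventricle on the authors' scale. Of 16 genes of nucleotide synthesis and salvage, 10 passed toward the ventricle and 5 toward the atrium (median -1.44), and 1 turned. Under the other scalings 6, 10 and 1 passed toward the ventricle. The ventricular set included makers of deoxynucleotides. RRM2B, a small subunit of ribonucleotide reductase, stood at 181, 14.3 and 132 in the atria and 1000.0, 2063 and 839.9 in the ventricles (-4.07 ± 0.83, limma adjusted p = 0.00421). The atrial set included purine genes. ATIC, which closes the purine ring, stood at 642, 534 and 715 against 89.6, 114 and 284 (2.12 ± 0.49, adjusted p = 0.00681). Neither gene overlapped between chambers. Atrial calls numbered 2 without any 1 of atria 1 to 3 or ventricle 1, and ventricular calls 6 without atrium 2.

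Of 28 DNA repair genes, 21 passed toward the ventricle and 5 toward the atrium (median -1.31), and 6 turned. Past the threshold toward the ventricle were 7, 16 and 1 under the other scalings. Of the ventricular ones 9 passed without atrium 1, 10 without atrium 2, 13 without atrium 3 and 11 without ventricle 2. Atrial counts were 1 without atrium 2, 2 without atrium 3 and 2 without ventricle 1. XRCC5, the Ku80 subunit that binds broken DNA ends, stood at 2529, 3152 and 2823 in the atria and 15357, 13140.0 and 7455 in the ventricles (-2.02 ± 0.34, limma adjusted p = 0.00186). REV3L, the catalytic subunit of a polymerase that copies damaged DNA, stood at 3149, 3009.7 and 2977 against 883, 1183 and 1791 (1.304 ± 0.34, adjusted p = 0.0103). Both genes were without overlap, and in both ventricle 3 was the closest to the atria. Of 23 chromatin and histone genes, 16 passed toward the ventricle and 2 toward the atrium (median -1.29), and 8 turned; 4, 10 and 0 passed toward the ventricle under the other scalings. Their ventricular count was 8 without atrium 1, 9 without atrium 2 and 9 without ventricle 2, and the atrial count lay between 0 and 3. H3F3A, the replacement histone H3.3, stood at 15464, 15892 and 16614 against 44072, 54226 and 24929 (-1.29 ± 0.35, adjusted p = 0.0113). NCAPG, a subunit of condensin, which compacts chromosomes for division, stood at 68.2, 12.4 and 52.8 against 200.2, 215 and 184 (-2.44 ± 0.66, adjusted p = 0.0116). Of the other scalings, XRCC5 and NCAPG passed under TMM and quantile normalization, and H3F3A under none. All 7 listed condensin genes were lower in the atrium, 5 of them past the threshold and 2 of them turning; 3 passed without atrium 1, atrium 2 or ventricle 2.

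Actin regulators and motors were found on both sides, as were the listed rows as a whole (42.0% toward the atrium, 45.6% toward the ventricle). Of 32 listed genes, 14 passed toward the atrium and 15 toward the ventricle (18 without ventricle 3), and 6 turned. The ventricular count became 6, 5 and 0 under the other scalings. The ventricular count was 9 without atrium 1, 6 without atrium 2, 10 without ventricle 1 and 9 without ventricle 2. FSCN1, the actin-bundling protein fascin, stood at 12065, 14452 and 15295 in the atria and 83150.2, 79801 and 26007 in the ventricles (-2.01 ± 0.44, limma adjusted p = 0.00581). The gene tmsb4x, encoding a thymosin that holds actin monomers, stood at 7436, 8178 and 9013 against 53605, 52214 and 10694 (-1.92 ± 0.55, adjusted p = 0.0136; 0.0519 without atrium 2). Neither gene overlapped between the chambers, although for tmsb4x ventricle 3 was barely above the highest atrium, and both passed under TMM alone of the other scalings. SVIL, the membrane-linked actin binder supervillin, stood at 7443, 7703 and 7608 in the atria and 2190.3, 2105 and 3760.2 in the ventricles (1.55 ± 0.32, adjusted p = 0.0045). Kinesins, which carry cargo along microtubules, were grouped after their values were seen. KIF4A, KIF15 and KIF23, known for their work in cell division, passed toward the ventricle (0 of the 3 without atrium 2 or without ventricle 2, and 1 without atrium 1), and the other 7 passed toward the atrium (6 or 7 with any 1 library left out); none of the 10 turned. KIF26B stood at 871, 922 and 1325 in the atria and 75.2, 111 and 248 in the ventricles, without overlap (2.99 ± 0.49, adjusted p = 0.00169).

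Adhesion and guidance genes were mostly higher in the atrium. Of 33 cadherins, immunoglobulin adhesion proteins and guidance proteins, 32 passed toward the atrium, 30 of them also without ventricle 3, and 0 toward the ventricle. The median was 1.90 and 1 gene turned. Under the other scalings 32, 24 and 32 passed toward the atrium. The atrial count was 20 without atrium 3, 21 without atrium 2, 22 without atrium 1 and 22 without ventricle 2. NCAM2, a neural adhesion molecule, stood at 12523, 11217 and 10518 in the atria and 5862, 3980.5 and 5742 in the ventricles (1.15 ± 0.30, limma adjusted p = 0.00977; a fold change of 0.97 without ventricle 2, which did not pass). EPHA5, a receptor for ephrins on neighbouring cells, stood at 6266, 3896 and 4094 against 1553, 1764 and 1775 (1.45 ± 0.31, adjusted p = 0.00514). DCHS2, a large cadherin of the dachsous type, stood at 371, 138 and 279 against 0, 12.03 and 47.9 (4.82 ± 1.18, adjusted p = 0.00854). The atria exceeded the ventricles without overlap in all 3 genes.

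Ligands and receptors of the same guidance systems were higher in the same chamber. These 4 genes were singled out after their values were seen. SLIT2, a secreted repellent of growing axons and migrating cells, stood at 2235, 2288 and 2654 in the atria and 920.4, 609 and 1575 in the ventricles (1.31 ± 0.38, limma adjusted p = 0.0145). Its receptor ROBO1 stood at 2754, 2733 and 3287 against 113, 185 and 585 (3.65 ± 0.54, adjusted p = 0.00102). For both genes ventricle 3 was the highest ventricle and stayed below every atrium; without ventricle 2 SLIT2 had a fold change of 0.99 and did not pass. NTN1, the secreted cue netrin, stood at 281, 305 and 364 against 47.6, 30.1 and 95.7 (2.58 ± 0.54, adjusted p = 0.00458). Its receptor UNC5C stood at 2334, 2853 and 2618 against 737, 580.5 and 697 (1.95 ± 0.31, adjusted p = 0.00142). None of the 4 turned. The exception in the group was a copy of HMCN1, the matrix protein hemicentin, at 1093, 2132 and 1753 in the atria and 5000.2, 4835 and 1422 in the ventricles (-1.02 ± 0.50, adjusted p = 0.0687; 0.22 after the ribosomal rescaling). The other 5 copies of HMCN1 passed toward the atrium, between 1.84 and 4.11.

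**Figure D5:**
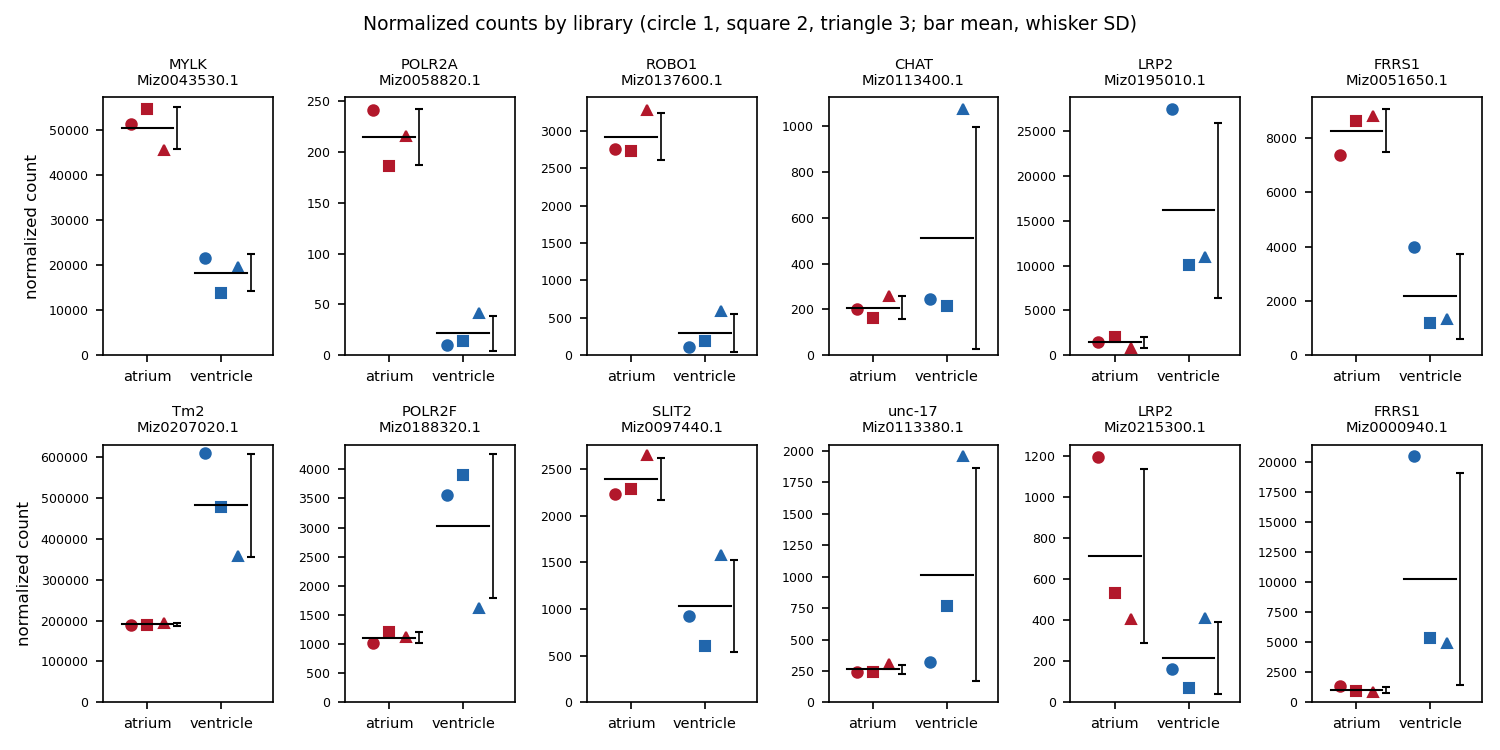
Normalized counts of 12 genes in the 3 atrium libraries (red) and 3 ventricle libraries (blue), with circles, squares and triangles for replicates 1, 2 and 3, bars for means and whiskers for the SD; each panel has its own axis from 0. The chambers do not overlap in MYLK, Tm2, POLR2A, POLR2F, ROBO1, SLIT2, unc-17, LRP2 row Miz0195010.1 or the FRRS1 copies. Ventricle 3 alone stands high for CHAT, which changes sign under the ribosomal rescaling.

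Solute carriers, which move nutrients and ions across the cell membrane, were mostly higher in the atrium. Of 47 listed rows, 32 passed toward the atrium (31 without ventricle 3) and 9 toward the ventricle, at a median of 1.78, and 3 turned. The other scalings gave 36, 16 and 36 atrial and 3, 8 and 1 ventricular calls. The atrial count was 19 without any 1 of the atria and 21 without ventricle 2, and the ventricular count was 4 or 5 without any 1 library other than ventricle 3. SLC39A12, a zinc importer, stood at 5699.9, 3625 and 5443 in the atria and 754, 2002 and 1847 in the ventricles (1.78 ± 0.41, limma adjusted p = 0.00707). SLC28A3, a nucleoside carrier, stood at 60.1, 217 and 113 against 0, 9.02 and 0 (5.74 ± 1.01, adjusted p = 0.00232). SLC16A12, a creatine carrier of the monocarboxylate family, ran the other way at 79.6, 194 and 98.1 against 1137, 1391 and 1023 (-3.34 ± 0.44, adjusted p = 0.000576). All 3 were without overlap. Of 6 sodium-coupled SLC5 rows 5 passed toward the atrium, as did all 5 SLC6 rows, the family of transmitter and amino acid carriers; with 1 library left out, 2 to 5 and 3 to 5 passed.

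Detoxification genes were found on both sides, as were the listed rows as a whole (42.0% toward the atrium, 45.6% toward the ventricle). Of 33 enzymes and ABC transporters, 20 passed toward the ventricle and 12 toward the atrium, at a median of -1.08, and 7 turned. Under the other scalings 9, 13 and 0 passed toward the ventricle, and 13, 7 and 13 toward the atrium. Those of the ventricle numbered 11 without atrium 1, 11 without atrium 2, 12 without atrium 3 and 13 without ventricle 1, and the atrial count was 6 without atrium 1, atrium 2 or ventricle 1. All 7 glutathione S-transferases, which couple glutathione to foreign compounds, passed toward the ventricle (4 without atrium 1 or atrium 2), and 3 turned. Among them GSTO1 stood at 2809.8, 3527 and 3045 in the atria and 11711, 10599 and 4691 in the ventricles (-1.42 ± 0.38, limma adjusted p = 0.0111), and MGST1 at 1163, 950.4 and 977 against 5692, 5379 and 1849 (-1.90 ± 0.44, adjusted p = 0.00667). GSTO1 passed under none of the other scalings, and MGST1 under TMM and quantile normalization. Of 8 cytochromes P450, oxidases of lipids and foreign compounds, 5 passed toward the atrium and 3 toward the ventricle, and 2 turned; with 1 library left out 3 to 5 and 1 to 3 passed. A copy of ABCB11, named for the bile salt pump of vertebrates, stood at 6432, 8192 and 6257 against 3039.9, 2371 and 3981 (1.17 ± 0.31, adjusted p = 0.0111; a fold change of 0.99 without ventricle 2). The other ABCB11 rows passed 1 in each direction. The GSTO1 and MGST1 rows and the first ABCB11 row did not overlap between the chambers.

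Lipid synthesis genes were few, and some rested on atrium 2. Of 7 genes 6 passed toward the atrium and 1 toward the ventricle (median 2.52), and 1 turned. Under the other scalings 6, 4 and 6 passed toward the atrium and 0 toward the ventricle. Without atrium 2 the atrial count was 3. Toward the ventricle 0 passed without atrium 1, atrium 2 or ventricle 2. A FASN row, named for fatty acid synthase, stood at 393, 7797 and 1566 in the atria and 205, 174 and 143 in the ventricles (3.29 ± 0.84, limma adjusted p = 0.00986). CYP7B1, a sterol hydroxylase of the detoxification list, stood at 573, 3948 and 378 against 105, 219.6 and 124 (2.73 ± 0.76, adjusted p = 0.0127). In both genes the chambers did not overlap and atrium 2 was the highest library by far. An XIAP row, one of the inhibitors of apoptosis, had the same profile, at 1415, 10783 and 791 against 917, 669 and 614, and it did not pass (1.67 ± 0.77, adjusted p = 0.06).

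Cell death genes were found on both sides as well, as were the listed rows as a whole (42.0% toward the atrium, 45.6% toward the ventricle). Of 23 genes, 10 passed toward the atrium and 7 toward the ventricle, at a median of 1.37, and 3 turned. Under the other scalings 2, 2 and 0 passed toward the ventricle. The atrial count was 2 without atrium 2, 5 without ventricle 1, and 6 without atrium 1 or ventricle 2. Of 8 inhibitors of apoptosis (BIRC2, IAP1 and XIAP), grouped after their values were seen, 7 passed toward the atrium; the count was 1 without atrium 2, 2 without ventricle 1, 3 without ventricle 2 and 4 without atrium 1. CASP14, a caspase row, stood at 499, 667 and 611 in the atria and 24.3, 18.0 and 33.8 in the ventricles (4.52 ± 0.48, limma adjusted p = 0.000179). CYCS, cytochrome c, which carries electrons in respiration and triggers apoptosis once released, stood at 7929.9, 13433 and 7939.9 against 61495, 29369 and 16771 (-1.72 ± 0.46, adjusted p = 0.0112), and passed under TMM alone of the other scalings. Neither gene overlapped between the chambers.

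Markers of other cells that a heart sample can hold were read from the listed rows, so a marker outside the listing has no value here. Of 20 neuron marker rows, 18 passed toward the atrium (17 without ventricle 3) and 1 toward the ventricle, and 1 turned; 11 passed toward the atrium under quantile normalization. Their summed level ran from 11822 to 13113 in the atria, was 4469 and 4886 in ventricles 1 and 2, and was 7518 in ventricle 3. The atrial count was 9 without atrium 1, 12 without atrium 2 and 10 without atrium 3. NRXN2, a presynaptic adhesion protein, stood at 1438, 1320.0 and 1793 in the atria and 97.3, 66.2 and 178 in the ventricles (3.83 ± 0.44, limma adjusted p = 0.000272), and UNC13C, which primes synaptic vesicles, at 4051, 4176 and 2762 against 989, 1224 and 1508 (1.56 ± 0.33, adjusted p = 0.00471). These markers moved with the adhesion and carrier groups, and 5 SLC6 rows belong to both the neuron and the carrier list. The 5 rows, named SLC6A2, SLC6A8, SLC6A14 and SLC6A19, are all among the 18 that passed toward the atrium. Their family also carries amino acids, so they need not mark neurons. The part of the neuron markers in the adhesion and carrier results was not tested.

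In a pair of genes of acetylcholine, the transmitter of cholinergic nerves, ventricle 3 was the highest library. CHAT, which makes acetylcholine, stood at 201, 160.5 and 260.2 in the atria and 246, 217 and 1073 in the ventricles (-0.92 ± 0.61, limma adjusted p = 0.16; 0.31 after the ribosomal rescaling). The gene unc-17, named after its values were seen and not on the neuron list counted above, encodes the carrier that loads acetylcholine into vesicles. It stood at 242, 239.7 and 307 against 321, 767 and 1960.3 (-1.58 ± 0.58, adjusted p = 0.0284), and passed neither without ventricle 3 nor without ventricle 2 or any 1 of the atria (0.0538 to 0.0865), nor under any of the other scalings. The CHAT values overlapped between the chambers and those of unc-17 did not. AMN, an endocytic receptor subunit, was also high in ventricle 3 alone, at 49.5, 4.78 and 55.0 against 37.6, 113 and 1235 (-2.79 ± 1.24, adjusted p = 0.0514).

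Markers of the pericardial gland and kidney leaned to the atrium by number of genes and to the ventricle by summed level. Of 12 rows 10 passed toward the atrium (8 without ventricle 3) and 1 toward the ventricle, and 0 turned. The remaining row did not pass and was also higher in the ventricle. Quantile normalization gave 4 atrial and 2 ventricular calls. The atrial count was 3 without atrium 1, 3 without atrium 2 and 6 without ventricle 1. Neighbouring identifiers both carry the name SALL1, a transcription factor of mammalian kidney development. The more abundant stood at 584, 760.3 and 785 in the atria and 9.96, 0 and 30.0 in the ventricles (6.66 ± 1.04, limma adjusted p = 0.00141), and the other at 124, 186 and 194 against 0, 0 and 2.82 (6.73 ± 0.78, adjusted p = 0.000275). Whether they are parts of the same gene is unknown. The summed level of the list ran from 6345 to 8410 in the atria and from 11235 to 28276 in the ventricles, because of a single row of LRP2, the endocytic receptor megalin. That row (Miz0195010.1) stood at 1497, 2007 and 766 in the atria and 27435, 10089 and 10922 in the ventricles (-3.45 ± 0.47, adjusted p = 0.000731). Another LRP2 row (Miz0215300.1) stood at 1195, 531 and 407 against 163, 70.7 and 412, with an overlap at ventricle 3 (1.92 ± 0.65, adjusted p = 0.022), and did not pass without atrium 1, atrium 2, ventricle 1 or ventricle 2 (0.0563 to 0.0887).

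Cilia, hemocyte and germ cell markers were fewer. Of 14 cilia rows 11 passed toward the atrium (10 without ventricle 3), and 2 turned; the count was 5 under quantile normalization, 1 without atrium 1, 2 without atrium 2, 2 without atrium 3 and 3 without ventricle 1. Their sum ran from 3687 to 3809 in the atria and from 1762 to 2388 in the ventricles. DNAH5, a heavy chain of the dynein that bends cilia, stood at 279, 345 and 445 against 31.0, 66.2 and 144, without overlap (2.37 ± 0.59, limma adjusted p = 0.00878). Of 8 hemocyte rows 4 passed toward the atrium and 3 toward the ventricle (median 0.03, of no fixed sign: -0.21 without atrium 2 and -0.26 without ventricle 3), and 1 turned. The counts toward the atrium and the ventricle were 1 and 0 without atrium 2, and 2 and 1 without atrium 1, ventricle 1 or ventricle 2. The hemocyte sum overlapped between chambers, from 9005 to 17949 in the atria and 6395 to 14186 in the ventricles. AIF1, a calcium-binding protein of blood cells, stood at 1234, 3519 and 2034 against 8141, 5409 and 1972 (-1.10 ± 0.54, adjusted p = 0.0712; 0.14 after the ribosomal rescaling). The 2 germ cell rows summed to 284 to 984 in the atria and 93 to 128 in the ventricles, and 1 of them, DMRTA2, a factor related to sex-determining genes, passed at 536, 243 and 888 against 68.6, 109.8 and 19.7, without overlap (3.17 ± 0.70, adjusted p = 0.00576). The part of these cells in the chamber differences was not tested.

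The 10 genes with the highest mean held 17.3% to 17.9% of the listed normalized counts in the atria and 20.5% to 24.9% in the ventricles, without correction for gene length. Among them AIM1L, a protein with crystallin-type domains, stood at 71938, 19696 and 38801 in the atria and 530144, 455041 and 164368 in the ventricles (-3.16 ± 0.56, limma adjusted p = 0.00237). MMP19, a matrix-cutting metalloproteinase, stood at 35336, 64161 and 32579.6 against 572023, 205287 and 67691 (-2.25 ± 0.66, adjusted p = 0.0143). In AIM1L and MMP19 every ventricle was above every atrium, with ventricle 3 the lowest ventricle. MMP19 did not pass under the ribosomal rescaling, and AIM1L passed under all 3 other scalings.

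Wide gaps toward the atrium were seen in genes close to absent from the ventricle. The 6 named rows with gaps wider than those given here, from 7.52 to 9.15, are not described. MDP1, a magnesium-dependent phosphatase, stood at 2752, 1609 and 3627 in the atria and 11.1, 10.5 and 31.9 in the ventricles (7.25 ± 0.55, limma adjusted p = 2.61e-05). SSPO, a giant secreted protein of the spondin type, stood at 7032, 2277 and 3289.9 against 8.85, 63.2 and 36.6 (7.03 ± 0.68, adjusted p = 0.00015). NTRK3, a neurotrophin receptor in vertebrates, stood at 167, 389.7 and 222 against 5.53, 0 and 0 (7.03 ± 0.87, adjusted p = 0.000394). The chambers were far apart in each. A GLRA3 row, named for a glycine-gated chloride channel, stood at 983, 525 and 994 against 5.53, 12.03 and 7.51 (6.48 ± 0.55, limma adjusted p = 6.13e-05). Of the 4 GLRA3 rows, 2 passed toward the atrium and 2 toward the ventricle. TRPA1, an irritant-sensing channel, stood at 48.7, 7.64 and 209 in the atria and had no read in any ventricle. GABBR2, a subunit of the metabotropic GABA receptor, stood at 122, 48.7 and 8.18 and had no ventricular read either. A floor of 3 reads over the 3 ventricles is a mean of 1.14 normalized counts. The arithmetic mean of the atria was 77.6 times this floor for TRPA1 and 52.3 times for GABBR2. These means lean on the highest atrium, and the lowest atrium stood at 7.64 and 8.18. The log2 fold changes were 5.49 ± 1.13 for TRPA1 (limma adjusted p = 0.00456) and 5.26 ± 1.04 for GABBR2 (limma adjusted p = 0.00382).

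Rows without a symbol also held wide gaps. Miz0140470.1 stood at 1357, 748 and 2471 in the atria with no ventricular read, an arithmetic mean 1339.7 times the same floor. Miz0025400.1 stood at 1000.5, 525 and 422 with none, a mean 570.3 times that floor. Toward the ventricle, Miz0218050.1 stood at 96.6, 157 and 142 in the atria and 2669, 1916 and 2019 in the ventricles (-4.07 ± 0.37, limma adjusted p = 0.000102), and Miz0151470.1 at 21.9, 11.5 and 5.95 against 363, 334 and 207 (-4.55 ± 0.62, adjusted p = 0.000731). No role can be given to these identifiers. Named rows reached farther toward the ventricle: 10 had gaps wider than that of SFXN1, from -6.40 to -3.34, and of these RRM2B, LRP2 and SLC16A12 are described above, B3GALT1 here and the others not. SFXN1, a mitochondrial serine carrier, stood at 111, 53.5 and 119 against 727, 752 and 1333 (-3.32 ± 0.47, adjusted p = 0.000929), and was among the genes with ventricle 3 as the highest ventricle. A B3GALT1 row, named for a galactosyltransferase, stood at 60.9, 28.7 and 22.3 against 996, 359 and 123 (-3.34 ± 0.75, limma adjusted p = 0.0062). The chambers did not overlap in any of these rows. Of the 3 B3GALT1 rows, 2 passed toward the atrium and only the row given here toward the ventricle.

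Rows that share a symbol did not always share a direction, and near-identical copies could split reads in the authors' counting. Of 174 symbols with at least 2 rows, 69 had all rows past the threshold toward the atrium, 40 all toward the ventricle, and 28 had rows past the threshold in both directions. FRRS1, a ferric reductase, is among the 28: 1 row (Miz0051650.1) stood at 7359, 8639 and 8824 in the atria and 3974, 1183 and 1350.4 in the ventricles (2.15 ± 0.44, limma adjusted p = 0.00436). Another (Miz0000940.1) stood at 1339, 966 and 834 against 20435, 5368 and 4942 (-2.99 ± 0.51, adjusted p = 0.00198). Neither row overlapped between the chambers, and ventricle 1 was the highest ventricle in both. Other symbols, picked after their values were seen, kept 1 direction. All 8 HDLBP rows, named for an RNA-binding vigilin, passed toward the ventricle between -2.55 and -1.01, and 1 turned. All 3 KISS1R rows, named for the kisspeptin receptor, passed toward the atrium between 4.61 and 5.80, and 0 turned.

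Some scallop genes share a symbol with a gene in the snail table, which was normalized separately and lists its own selection. Symbols with exactly 1 row in each table numbered 247, which is 12.3% of 2005 such scallop symbols and 39.2% of 630 snail symbols. In these, 151 were higher in the ventricle of both species and 52 higher in the atrium of both, while 19 were higher in the scallop atrium and the snail ventricle and 25 the reverse. Netrin NTN1 differed by 2.58 in scallop and -2.82 in snail, and its receptor UNC5C by 1.95 and -1.16. The acetylcholine loader unc-17 differed by -1.58 and 1.60, and GLUD1 by -1.58 and 1.53. In scallop, unc-17 passed under none of the other scalings, nor without any 1 library other than ventricle 1. All of these genes were picked after their values were seen, shared symbols are not ortholog calls, and the species difference was not tested here. Under the ribosomal rescaling of the scallop table, the number of opposite pairs was 64 in place of 44.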

How the data were processed

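Poly-A selected RNA of scallop atria and ventricles was sequenced, with chamber and replicate number taken from the sample titles. Per the submitters' processing notes, the tools included DESeq2 1.20.0, StringTie 1.3.3b, HISAT2 2.0.5 and featureCounts 1.5.0, whose roles are not stated there. The genome build, annotation and strand setting are not given in the sources used here; reads of overlapping genes or close copies may be shared or split. The authors deposited, per library, a signal of normalized counts: reads divided by 1 size factor per library, since 100% of values were whole multiples of 1 step within 0.01 read. The authors' deposited log2 fold changes are for ventricle over atrium, and their deposited test score and p-value were used only to describe which rows were listed.

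Rows with a mean of at least 10 were log-transformed as log2(normalized count + 1), a scale on which low genes show too small a change, and fitted in R 4.3.3 by limma 3.58.1 with the trend option. The threshold was a Benjamini-Hochberg adjusted p under 0.05 and at least 2-fold. The values being normalized counts, limma was the test the design gave for that case. The script was tested on simulated data. Alternatives were pseudocounts of 0.5 and 10, no minimum, a minimum of 100, a further TMM scaling, quantile normalization, a ribosomal rescaling, edgeR 4.0.16 and DESeq2 1.42.0 on the recovered reads, the replicate number as a block, and each library left out. An exact permutation test of 3 against 3 libraries cannot go below p = 0.1, so none was used.

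Genes were named by a rule: per group and direction the 2 with the highest mean, and the 1 with the widest gap among those past the threshold without overlap and with at least 100 normalized counts in the higher chamber, and over all rows the highest means, the widest gaps and copies in both directions. Not every gene the rule gave is described, and genes outside it are marked as picked after their values were seen. The members, the lists and the families were chosen with earlier results of these data known, some list entries were left out after the symbols were read, and a list shows only genes that the authors had selected.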

Additional observations from a re-analysis of the deposited data

How the results depend on the processing

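The threshold was passed by 3440 rows, 1648 toward the atrium and 1792 toward the ventricle. All counts were within 1.5 times of these under pseudocounts of 0.5 and 10, without a minimum, under edgeR (1392 and 1915) and under DESeq2 (1619 and 2049). Beyond that range were 980 atrial rows with a minimum mean of 100, 596 ventricular rows under TMM, 2106 rows (975 and 1131) under quantile normalization, and 1800 rows with 60 ventricular ones under the ribosomal rescaling. Leaving out 1 library gave 1808 to 3483 rows, 866 to 1565 atrial and 909 to 1918 ventricular, 16 to 19 of 23 groups with more ventricular than atrial genes past the threshold (18 with all libraries), and 43 to 44 opposite pairs with snail. Under the ribosomal rescaling 0 groups leaned to the ventricle, and group medians reversed to 0.0775 (splicing), 0.104 (polymerases), 0.0232 (nuclear pore), 0.0713 (translation factors), 0.0349 (ribosome biogenesis), 0.21 (vesicles), 0.28 (lysosome), 0.22 (ubiquitin), 0.16 (detoxification), 0.24 (actin and motors) and 0.0668 (contractile). The hemocyte median ran from -0.26 to 0.198 with 1 library left out, and was -0.21 without atrium 2 and -0.26 without ventricle 3. Genes reversed under the same rescaling were TNNT2 0.11, TNNI1 0.0209, RAN 0.0232, EEF1A1 0.23 (0.0708 under quantile normalization), NCL 0.0799, HMCN1 0.22, CHAT 0.31 and AIF1 0.14. That rescaling rests on 60 genes that were themselves listed as different. Its factors were 1.43 to 1.69 in atria, 0.471 and 0.557 in ventricles 1 and 2 and 1.05 in ventricle 3. TMM and quantile normalization likewise used listed rows alone, and which scaling holds was not tested.

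Deviations of same-numbered libraries from their chamber means correlated at -0.13, -0.16 and -0.12 across genes, and other pairs at -0.03 to 0.16. With 3 libraries per chamber these deviations are not independent, so the values cannot tell whether same-numbered libraries shared an animal. With the replicate block, 3022 rows passed, 2947 of them also without it. Of the 80 genes named, 75 passed, and of these calls 12 were lost under TMM, 25 under quantile normalization, 29 under the ribosomal rescaling and 1 to 8 when a library was left out. Rows near the minimum of 10 rest on few ventricular reads.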
